A study of Mus musculus with 6 samples.

Results

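The genes described here are 10 surface molecules that mark resident peritoneal macrophages (PMs) or hold leukocytes to other cells and to matrix. They were taken from a list of names: the integrin subunits Itgam, Itgb2, Itgax, Itga4, Itga6 and Itgb1, the immunoglobulin-family ligands Icam1 and Icam2, the selectin Selp, and Adgre1, which encodes the macrophage marker F4/80. All 10 had at least 1 transcript record among the 32879 genes of the count table, and the counts of every record of a gene were summed. RNA was sequenced from PMs sorted by flow cytometry from female mice, with 1 library for each of 3 control mice and 3 diseased-BWF1 mice. The comparison asks which transcripts differ in PMs of mice with lupus-like disease. NZW by BALB/c F1 females, which do not develop lupus, served as controls at 33, 33 and 30 weeks of age. The diseased-BWF1 mice, aged 31, 31 and 34 weeks, came from the NZB by NZW cross, whose F1 females develop lupus spontaneously. Parental strain and disease differ together between the groups and cannot be told apart. The gate of both groups included F4/80+ and CD11b high, so the products of Adgre1 and Itgam defined the cells, and the presence of these transcripts is no finding.

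Integrins are heterodimers of an alpha and a beta chain that bind matrix proteins or receptors on other cells, and they switch between low and high affinity when talins and kindlins engage the tail of the beta chain. CD11b (Itgam) pairs with CD18 (Itgb2) to form the complement receptor Mac-1, and the alpha 4 and alpha 6 chains (Itga4, Itga6) pair with the beta 1 chain (Itgb1) to bind VCAM-1 and fibronectin or laminin. ICAM-1 and ICAM-2 are ligands of the leukocyte integrins, and P-selectin (Selp) binds carbohydrates carried by PSGL-1. Resident PMs express several of these molecules together, and their cloaking and clotting reactions in the peritoneal cavity depend on adhesion.

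The libraries held 3629901 to 5003360 counts each, of which 89.1% to 93.0% fell on genes. An abundance of 3 counts corresponded to 0.652 to 0.888 CPM (counts scaled by the total on genes), a floor that covers counting error only. Normalized counts are counts divided by the size factor of each library from DESeq2, and log2 fold changes are those of edgeR, diseased-BWF1 over control. Control mouse 3 stood apart from the rest. Across the 10505 genes tested, its log2 normalized counts correlated with those of control mice 1 and 2 at 0.923 and 0.918, against 0.953 between those mice and 0.936 to 0.943 among diseased-BWF1 mice. The difference followed transcript length. For 1197 genes with transcripts over 6000 bases, control mouse 3 lay at a median of -0.38 log2 units from the mean of the other control mice, and for 1599 genes under 1500 bases it lay at 0.26. In the diseased-BWF1 mice the same medians lay between -0.05 and 0.09. The fold change of each tested member is therefore shown with and without it in the plot of fold changes, and what set this library apart was not tested.

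**Figure D1:**
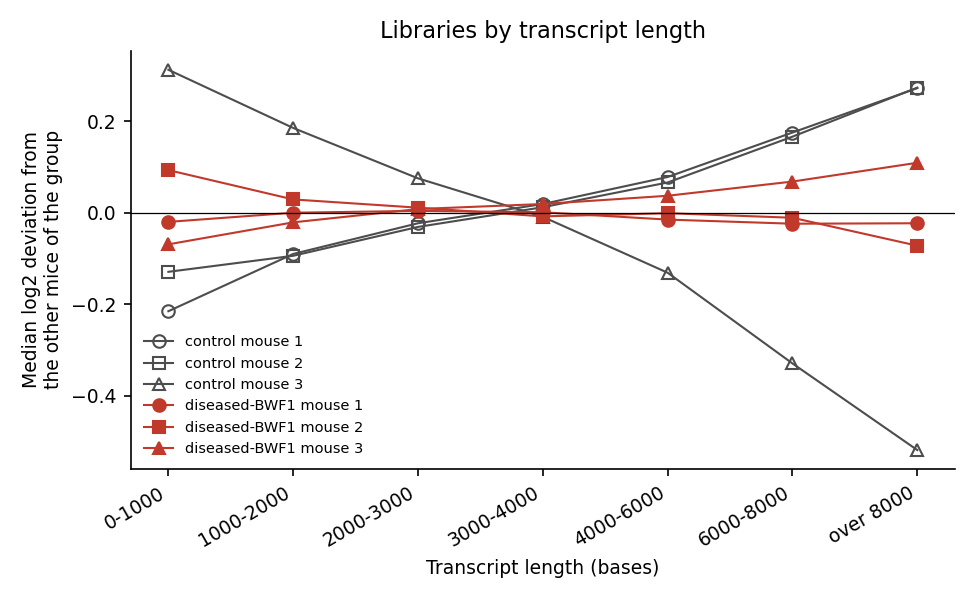
The horizontal axis bins 10186 tested genes by transcript length in bases, and the vertical axis is the median log2 deviation of a mouse from the mean of the other mice of its group. Control mouse 3 falls from 0.31 in the shortest bin to -0.52 in transcripts over 8000 bases, while the diseased-BWF1 mice stay between -0.07 and 0.11.

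None of the adhesion transcripts was called different between diseased-BWF1 and control PMs. Of the 10 members, 9 passed the filter on low counts and Itgax did not. Of these 9, 0 were called higher and 0 were called lower with edgeR's quasi-likelihood test, where a call needs a Benjamini-Hochberg adjusted p below 0.05 together with a 1.5-fold difference or more, beside 1.22% of the 10505 genes tested. An unadjusted p under 0.05 was found for 1 of the 9, Icam2, beside 13.2% of all genes tested. DESeq2 called 0 of the members, beside 2.97% of the 12407 genes to which it gave an adjusted p. For 2 of the 9, Adgre1 and Icam2, no mouse of either group fell within the range of the other, beside 20.8% of the genes tested, and both were lower in diseased-BWF1 mice, a direction found for 11.2%. The median log2 fold change of the 9 was -0.08 and its median size 0.17, against 0.01 and 0.22 over all genes tested. These are bulk samples, so fewer cells carrying a transcript and less of it per cell cannot be told apart.

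The 95% intervals of the fold changes show how far these libraries bound a difference. For 5 members, Adgre1, Itgam, Itgb2, Itga6 and Itgb1, the whole interval lay inside 1.5-fold in both directions, the outermost bounds being 0.687 for Itga6 and 1.42 for Itgam. For Itga4, Icam1, Icam2 and Selp it reached beyond 1.5-fold. An uncalled member with such an interval is therefore not shown to be at the same level in both groups.

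**Figure D2:**
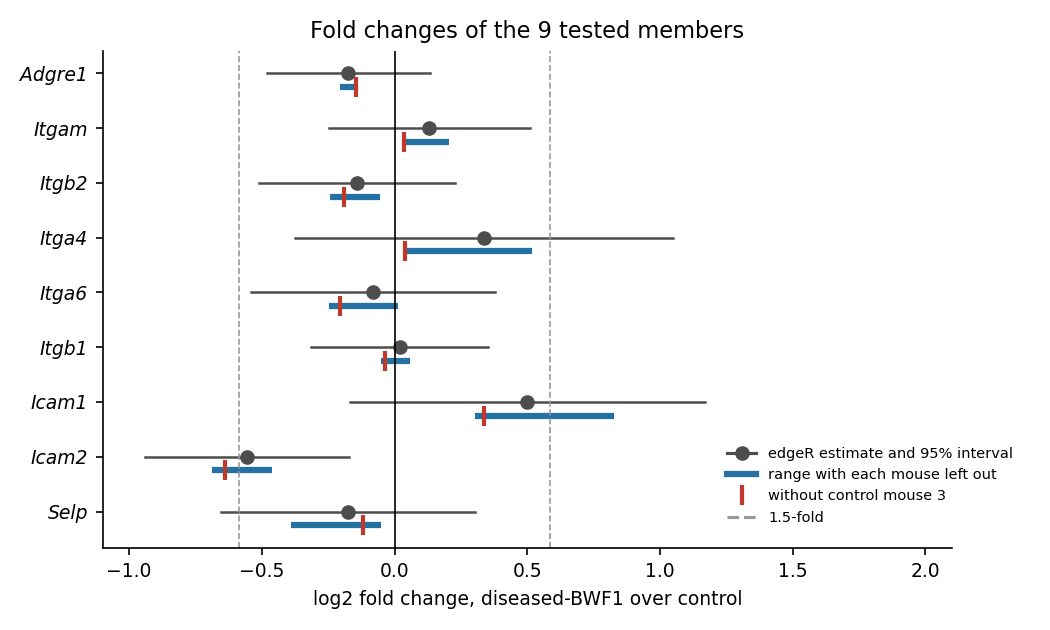
Points and thin lines are the edgeR log2 fold changes of diseased-BWF1 over control PMs with 95% intervals for the 9 tested members, blue bars are the range with each mouse left out, red ticks are the value without control mouse 3, and dashed lines mark 1.5-fold. Only the interval of Icam2, from -0.94 to -0.17, excludes 0, and the estimate for Itga4 moves from 0.34 to 0.04 without control mouse 3.

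Adgre1 encodes F4/80, an adhesion G protein-coupled receptor of tissue macrophages with EGF-like repeats. Its normalized counts were 8093, 8233 and 8562 in control mice and 7304, 7746 and 7060 in diseased-BWF1 mice. The lowest control value exceeded the highest diseased-BWF1 value by a small margin. The means were 8296 ± 241 (SD, n = 3) and 7370 ± 348, for which log2 fold change was -0.17 (standard error 0.13), and the adjusted p was 0.63 (edgeR's quasi-likelihood test, Benjamini-Hochberg adjustment). The separation depended on the scaling. As counts per kilobase of transcript, scaled to the same total in every library and called TPM-like here, control mouse 3 had 1503 and diseased-BWF1 mice 1 and 2 had 1537 and 1549, so the groups overlapped. Adgre1 lies at chr17:57358581-57483529 on GRCm38.p6, and of its 2 records the curated NM_010130.4 held 95.6% of the counts. The predicted record XM_006523602.1 held 9.3% in control mouse 3 and 2.9% to 4.0% in the other mice.

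Transcripts of the CD11b and CD18 chains of Mac-1 were the most abundant of the members. Itgam ranked 8 among all genes by mean normalized count, with 26832, 25004 and 20818 in control mice and 27483, 24478 and 27725 in diseased-BWF1 mice. The lowest value belonged to control mouse 3, and the groups overlapped. The log2 fold change was 0.13 (standard error 0.16, edgeR adjusted p = 0.783) and 0.035 without control mouse 3. Itgb2, the beta chain that CD11b shares with the other leukocyte integrins, ranked 30, with 10899, 11212 and 9921 in control mice and 9498, 11079 and 8499 in diseased-BWF1 mice. Diseased-BWF1 mouse 2 lay among the control mice and the other mice of its group lay below them. The log2 fold change was -0.14 (standard error 0.16, edgeR adjusted p = 0.758), with -0.24 without diseased-BWF1 mouse 2 and -0.05 without diseased-BWF1 mouse 3. On the TPM-like scale the ratio of Itgam to Itgb2 was 1.57, 1.42 and 1.34 in control mice and 1.85, 1.41 and 2.08 in diseased-BWF1 mice, with overlapping groups.

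The Itgam counts were divided between 2 curated records. NM_008401.2 held 61.3% of them over the 6 mice and NM_001082960.1 held 38.7%. The share of the former was 61.2%, 66.9% and 56.1% in control mice and 60.6%, 61.3% and 60.9% in diseased-BWF1 mice. The spread was thus wider among control mice than among diseased-BWF1 mice, with the former's extremes on both sides. The records share 98.4% of the 75-base sequences of the first, so the split between them is an estimate of the program that assigned reads, and it was not tested. Of all 75-base sequences in the Itgam transcripts, 72.1% also lie in Gm49368, a gene model of GENCODE that has no row in the count table. Itgb2 shares 0.242% with the pseudogene Gm14699, which has no row either.

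Itgax, which encodes the CD11c chain of dendritic cells and some macrophages, is the gene next to Itgam on the same chromosome, with its start 11035 bases beyond the end of Itgam. It had 2 counts in control mouse 2, 1 count in diseased-BWF1 mouse 1 and 0 in the other 4 libraries. These values are at or under the floor of 3 counts, and a difference between the groups was not detectable at this depth. Itgad, a further integrin alpha gene beside it that shares 6.04% of the 75-base sequences of Itgax, had 0 counts in every library. The neighbours thus differ more in level than any other pair of members. Their upstream sequences are shown for that reason, from RefSeq's table for GRCm38.p6, which held 6 of the 10 members. Itgam is shown from chr7:128062390-128062639 and Itgax from chr7:128129300-128129525, both on the plus strand and ending at the last base before the gene. Capitals mark GAGGAA, a core sequence bound by the myeloid factor PU.1, and GATAA, a core of GATA factors, each searched on both strands, where GAGGAA on the minus strand reads TTCCTC.
Itgam: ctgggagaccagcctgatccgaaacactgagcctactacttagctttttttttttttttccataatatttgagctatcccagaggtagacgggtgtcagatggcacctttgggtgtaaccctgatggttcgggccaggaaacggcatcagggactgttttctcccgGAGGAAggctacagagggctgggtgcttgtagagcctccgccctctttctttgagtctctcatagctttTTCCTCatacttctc
Itgax: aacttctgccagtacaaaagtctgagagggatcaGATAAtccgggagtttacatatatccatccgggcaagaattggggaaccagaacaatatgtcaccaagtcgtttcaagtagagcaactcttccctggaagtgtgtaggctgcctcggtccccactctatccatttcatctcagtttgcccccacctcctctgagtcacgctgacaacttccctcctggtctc
The Itgam window held 2 GAGGAA matches, beginning 84 and 15 bases before the gene, and 0 GATAA matches. The Itgax window held 0 and 1, the GATAA match beginning 192 bases before the gene. Of the 4 other members in the table, Itgb1 held 1 GAGGAA match and Itga4, Icam1 and Selp held 0, and all 4 held 0 GATAA matches, although Selp and Itga4 are far above the floor. Of 32851 promoters in the table, 23.3% held GAGGAA and 22.6% held GATAA in a window of 250 bases, and 21.0% and 21.2% did so in the 226 bases used for Itgax. These matches describe the letters only, and binding was not measured.

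Of the beta 1 integrins, Itga4 carried the largest effect of a single library. The alpha 4 chain had 2629, 2636 and 1141 normalized counts in control mice and 2638, 2603 and 2870 in diseased-BWF1 mice. Control mouse 3 lay far below the other 5 mice, which spanned 2603 to 2870. The log2 fold change was 0.34 (standard error 0.30, edgeR adjusted p = 0.699) with all mice and 0.04 (edgeR adjusted p = 0.918) without control mouse 3. The Itga4 transcript has 9767 bases, the longest of the members, and control mouse 3 was low in long transcripts as a class, with a median of -0.52 over the 450 tested genes above 8000 bases. Whether the length accounts for its low Itga4 was not tested. The gene, at chr2:79255426-79333114, has 1 record, and Cerkl, which overlaps its end, had 0 to 5 counts.

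The alpha 6 chain of the laminin receptor and the beta 1 chain itself showed no separation. Itga6 had 8775, 8911 and 6598 normalized counts in control mice and 9248, 7062 and 6663 in diseased-BWF1 mice. In both groups the values ran from about the same low to about the same high level. Its log2 fold change was -0.08 (standard error 0.20, edgeR adjusted p = 0.899), and it was -0.21 without control mouse 3 and 0.01, of the other sign, without diseased-BWF1 mouse 3. Itgb1 had 7029, 6816 and 6107 in control mice and 6387, 7441 and 6431 in diseased-BWF1 mice. Control mouse 3 had the lowest value and diseased-BWF1 mouse 2 the highest, and the groups overlapped. Its log2 fold change was 0.02 (standard error 0.14, edgeR adjusted p = 0.975), and it was -0.04 without control mouse 3 and -0.05 without diseased-BWF1 mouse 2. On the TPM-like scale the ratio of Itga6 to Itgb1 was 1.11, 1.16 and 0.956 in control mice and 1.28, 0.840 and 0.917 in diseased-BWF1 mice. The ratio of Itga4 to Itgb1 was 0.146, 0.151 and 0.0730 in control mice and 0.161, 0.137 and 0.174 in diseased-BWF1 mice, again with control mouse 3 apart. Of the Itga6 counts, 94.0% fell on the curated record NM_008397.4. The other curated record, NM_001277970.1, had 0 counts in every library, although 149 of its 75-base sequences are absent from the former. The pseudogene Gm29397 shares 5.75% of the Itga6 sequences and has no row in the count table.

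**Figure D3:**
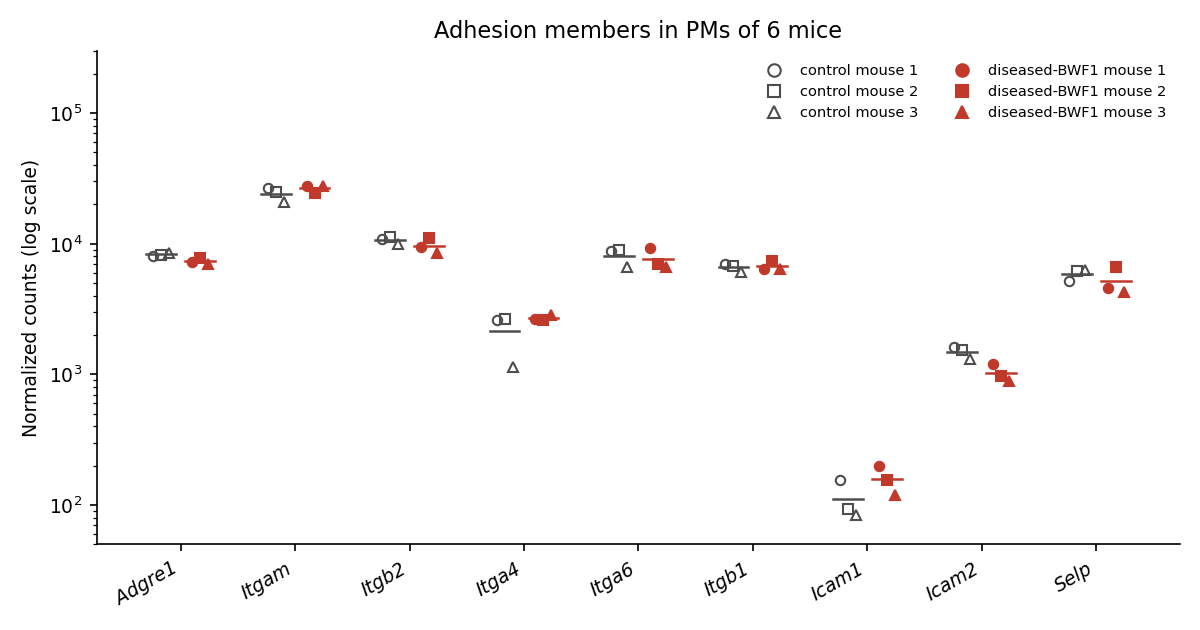
Normalized counts on a log axis for the 9 members above the low-count filter, with open symbols for the 3 control mice, filled symbols for the 3 diseased-BWF1 mice and lines at group means. The groups are apart for Adgre1 and Icam2, and control mouse 3 is the low point of Itga4 at 1141.

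Icam2, a constitutive ligand of the leukocyte integrins that marks the large resident PM, had the smallest p of the members. Its normalized counts were 1632, 1548 and 1310 in control mice and 1193, 979 and 889.6 in diseased-BWF1 mice. The control values all exceeded the diseased-BWF1 values, and an exact permutation test gave p = 0.1, the smallest possible for 3 mice against 3. The means were 1497 ± 167 (SD, n = 3) and 1020.5 ± 156, a fold of 0.681 (log2 -0.55, standard error 0.16). The unadjusted p was 0.0109 and the adjusted p was 0.198 (edgeR, Benjamini-Hochberg), so Icam2 did not pass. DESeq2 gave an adjusted p of 0.0611, and across the alternatives the adjusted p lay between 0.0283 and 0.423. The lowest came from curated mRNA records with DESeq2, a setting chosen after seeing the data, where the fold change stayed under 1.5. With each mouse left out, the log2 fold change lay between -0.69 and -0.46, and it was -0.64 without control mouse 3. On the TPM-like scale the groups overlapped, with 581 in control mouse 3 and 634 in diseased-BWF1 mouse 1. The curated record NM_010494.1 held 92.6% of the counts of this gene, which lies at chr11:106377656-106388139.

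Icam1, the inducible ligand, was the least abundant member above the filter. It had 156, 93.6 and 83.8 normalized counts in control mice and 198, 157 and 120.0 in diseased-BWF1 mice. Control mouse 1 lay within the diseased-BWF1 range and the other control mice below it. The log2 fold change was 0.50 (standard error 0.29, edgeR adjusted p = 0.516), with 0.30 without diseased-BWF1 mouse 1, 0.34 without control mouse 3 and 0.83 without control mouse 1. Within each group the order of Icam1 was the order of Cd74, the invariant chain of MHC class II, which had 1936, 218 and 198 normalized counts in control mice and 1621, 262 and 197 in diseased-BWF1 mice. The part of MHC class II-bearing cells in the Icam1 values was not tested. On the TPM-like scale the ratio of Icam2 to Icam1 was 20.6, 32.7 and 30.9 in control mice and 11.9, 12.3 and 14.7 in diseased-BWF1 mice. The ratio was lower in every diseased-BWF1 mouse than in every control mouse, a comparison chosen after its values were seen and given with no test.

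Selp, known from platelets and endothelium, was abundant in these sorted PMs. It had 5149, 6152 and 6271 normalized counts in control mice and 4622, 6681 and 4293 in diseased-BWF1 mice. Diseased-BWF1 mouse 2 was the highest of the 6 mice and the other diseased-BWF1 mice were the lowest. The log2 fold change was -0.18 (standard error 0.21, edgeR adjusted p = 0.771), with -0.39 without diseased-BWF1 mouse 2 and -0.05 without diseased-BWF1 mouse 3. All counts fell on the single record NM_011347.2. Of 9 listed platelet markers in the same libraries, Ppbp, Gp9 and Tubb1 had at most 1 count, Gp1bb and Treml1 at most 2, and Gp1ba and Itga2b at most 7 in any mouse, while Itgb3 had 96 to 193 and Pf4 had 774 to 2624. The part of platelets in the Selp values was not tested. Gm16548, a gene that overlaps the end of Selp, had 14 to 34 counts.

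On the TPM-like scale the members kept a largely fixed order. Over the 6 mice the means were 3556 for Itgam, 2220 for Itgb2, 1562 for Adgre1, 1189 for Itga6, 1139 for Itgb1, 1035 for Selp, 635 for Icam2, 163 for Itga4 and 34.9 for Icam1, with Itgax at the floor of counting. Itgam lay above Itgb2, and Itgb2 above Adgre1, in 6 of 6 mice and with ranges apart. Itga6, Itgb1 and Selp could not be ordered, since Itga6 exceeded Itgb1 in 3 of 6 mice and Itgb1 exceeded Selp in 4 of 6. Selp exceeded Icam2 within each of the 6 mice, though their ranges over mice overlapped. From Icam2 through Itga4 to Icam1, neighbouring ranges were apart. Together the 10 members held 1.57% to 1.87% of the counts on genes.

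Beyond these 10, 146 other adhesion genes in 9 lists were examined, of which 89 were tested. Of the 89, 4 were called higher and 0 lower with edgeR, beside 1.22% of all genes tested. An unadjusted p under 0.05 was found for 31, beside 13.2%, DESeq2 called 15, beside 2.97%, and the groups were apart for 35, beside 20.8%. Whether these numbers exceed those of other genes was not tested. Their median log2 fold change was 0.04, against 0.01 over all genes tested. Of the 4 called genes, 3 are described here, the integrin chain Itga5, the tetraspanin Tspan32 and the membrane protease Mmp14. Without control mouse 3, 0 of the 89 were called with edgeR, and 39 genes were called in the whole table, against 128 with all mice.

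Of 14 further integrin alpha genes, 5 were tested, edgeR called 1 higher and 0 lower, 3 had an unadjusted p under 0.05, beside 13.2%, and DESeq2 called 1, beside 2.97%. Itga5, which pairs with Itgb1 as the main fibronectin receptor, had 114, 117 and 109 normalized counts in control mice and 239, 285 and 437 in diseased-BWF1 mice. The lowest diseased-BWF1 value was more than 2 times the highest control value. Its log2 fold change was 1.49 (standard error 0.23, edgeR adjusted p = 0.0363). The call held without diseased-BWF1 mouse 3 (adjusted p = 0.0385) and was lost without any other mouse, with adjusted p of 0.114, 0.129 and 0.0929 without control mice 1, 2 and 3, and of 0.0589 and 0.0832 without diseased-BWF1 mice 1 and 2, while the log2 fold change stayed between 1.204 and 1.658. It was also lost with curated mRNA records (adjusted p = 0.111) and with the replicate number as a block (adjusted p = 0.0725). On the TPM-like scale the ratio of Itga5 to Itgb1 was 0.0141, 0.0150 and 0.0156 in control mice and 0.0326, 0.0333 and 0.0591 in diseased-BWF1 mice, so Itga5 remained far less abundant than its partner in both groups.

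The other partner chains were not called with edgeR. Itgal, the LFA-1 alpha chain, had 99.3, 42.2 and 41.3 normalized counts in control mice and 85.0, 179 and 113 in diseased-BWF1 mice, with log2 fold change 1.02 (edgeR adjusted p = 0.351). Itgav had 288, 282 and 171 in control mice and 293, 302 and 345 in diseased-BWF1 mice, and control mouse 3 was again the low value. For Itgav the log2 fold change was 0.34 (edgeR adjusted p = 0.544) and 0.135 without control mouse 3. Itga7, a laminin-binding chain whose groups did not overlap, had 30.6, 27.8 and 10.3 in control mice and 9.44, 6.08 and 3.03 in diseased-BWF1 mice (log2 fold change -1.88, edgeR adjusted p = 0.2002). It was called in the setting of curated mRNA records with DESeq2, chosen after seeing the data. The most counted gene of the list was Itga9, with log2 fold change 0.00, and Itga8 and Itgad had 0 counts in every mouse.

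Of 6 further beta chains, 4 were tested and 0 were called with edgeR, while 2 had an unadjusted p under 0.05, beside 13.2%, and DESeq2 called 2, beside 2.97%. Itgb5, which pairs with the alpha v chain, had 2.48, 8.23 and 9.19 normalized counts in control mice and 31.2, 15.2 and 195 in diseased-BWF1 mice. The groups did not overlap, but the spread among diseased-BWF1 mice was wide, with most of the group total in mouse 3. Its log2 fold change was 3.62 (standard error 1.06, edgeR adjusted p = 0.198) and fell to 1.83 without diseased-BWF1 mouse 3. DESeq2 called Itgb5, with an adjusted p of 0.00366. Itgb4, the partner of alpha 6 in epithelia, had the smallest p of the list, with 14.1, 42.2 and 31.0 normalized counts in control mice and 3.78, 6.08 and 1.01 in diseased-BWF1 mice (log2 fold change -2.95, edgeR adjusted p = 0.0878). EdgeR called Itgb4 without the low-count filter, and DESeq2 called it with an adjusted p of 0.00658. The most counted beta chain was Itgb7, with 1046, 619 and 504 in control mice and 1185, 1520 and 664 in diseased-BWF1 mice and an adjusted p of 0.521 from edgeR.

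**Figure D4:**
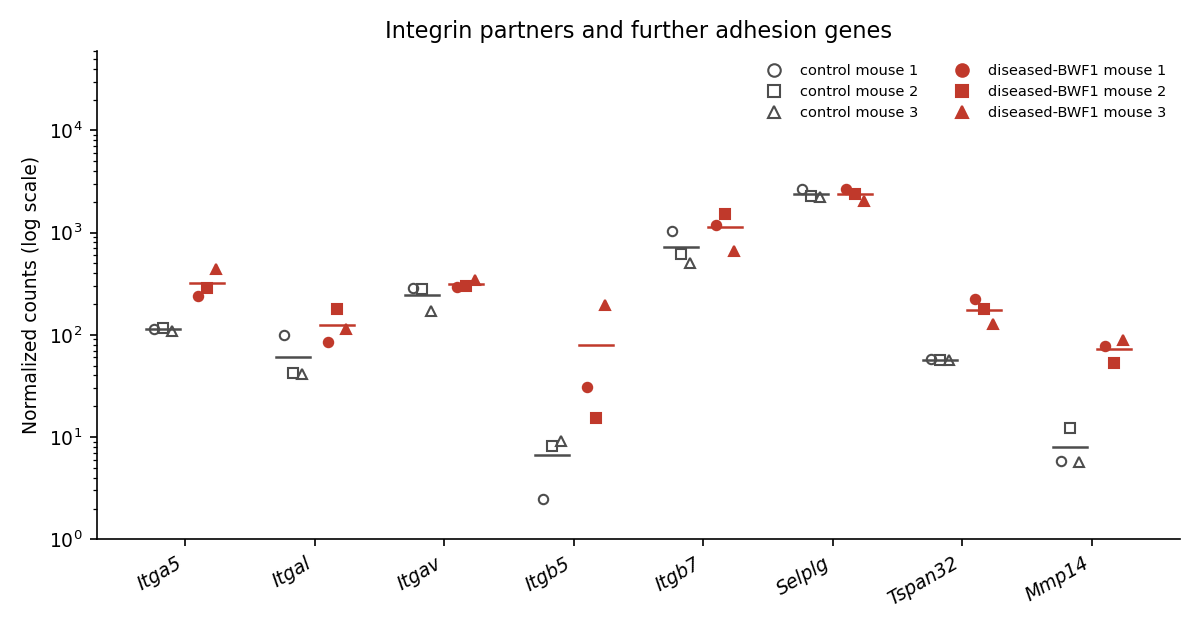
Normalized counts on a log axis for integrin chains that partner the members, the P-selectin ligand gene Selplg, and the called genes Tspan32 and Mmp14, with open symbols for control mice, filled symbols for diseased-BWF1 mice and lines at group means. Itga5, Tspan32 and Mmp14 are higher in every diseased-BWF1 mouse, and Itgb5 is spread from 15.2 to 195 in that group.

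Of 12 genes for selectins, their ligands and the enzymes that make them, 10 were tested. Selplg, which encodes PSGL-1, the main ligand of P-selectin, was the most counted gene of the list, with 2657, 2286 and 2220 in control mice and 2637, 2391 and 2043 in diseased-BWF1 mice (log2 fold change -0.02, edgeR adjusted p = 0.976).

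Tetraspanins organize integrins in the membrane. All 9 listed were tested, and edgeR called 1 higher and 0 lower, while 4 had an unadjusted p under 0.05, beside 13.2%, and DESeq2 called 3, beside 2.97%, of which 2 were higher and 1 lower. Tspan32 had 57.9, 56.6 and 56.3 normalized counts in control mice and 225, 177 and 127 in diseased-BWF1 mice, with log2 fold change 1.63 (standard error 0.23, edgeR adjusted p = 0.0278). The 3 control mice were nearly equal and the diseased-BWF1 mice spread over 127 to 225. The call held without diseased-BWF1 mouse 3 (adjusted p = 0.0191) and was lost without any other mouse, with adjusted p of 0.1003, 0.108 and 0.0810 without control mice 1, 2 and 3, and of 0.0769 and 0.0834 without diseased-BWF1 mice 1 and 2, while the log2 fold change stayed between 1.41 and 1.82. It was also lost with curated mRNA records (adjusted p = 0.120) and with the replicate number as a block (adjusted p = 0.0568). The others that DESeq2 called were Cd9 and Cd63. Cd9 had 458, 499 and 470 normalized counts in control mice and 1242, 1726 and 824 in diseased-BWF1 mice, with log2 fold change 1.41 and an adjusted p of 0.0587 from edgeR, which called it without diseased-BWF1 mouse 3 (adjusted p = 0.0287). Cd63 went the other way, with 626, 837 and 1159 in control mice and 194, 426 and 283 in diseased-BWF1 mice, log2 fold change -1.54 and an adjusted p of 0.0864 from edgeR and 0.000326 from DESeq2. Without the low-count filter edgeR called both Cd9 and Cd63. The most counted tetraspanin was Cd37, with log2 fold change 0.23 (edgeR adjusted p = 0.797).

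Of 8 proteases that shed adhesion molecules or cleave matrix, 7 were tested, edgeR called 1 higher and 0 lower, 2 had an unadjusted p under 0.05, beside 13.2%, and DESeq2 called 1, beside 2.97%. Mmp14, a matrix protease anchored in the membrane, had 5.79, 12.3 and 5.74 normalized counts in control mice and 78.4, 52.7 and 88.8 in diseased-BWF1 mice. No diseased-BWF1 mouse came near the control range. The log2 fold change was 3.19 (standard error 0.37, edgeR adjusted p = 0.0168). The call held without control mouse 2 and without diseased-BWF1 mouse 2, with adjusted p of 0.0353 and 0.0352, and was lost without control mice 1 and 3, at 0.0645 and 0.0592, and without diseased-BWF1 mice 1 and 3, at 0.0708 and 0.0504, while the log2 fold change stayed between 2.98 and 3.64. It was also lost with curated mRNA records and with the replicate number as a block, with an adjusted p of 0.0595 in each, and Mmp14 did not pass the filter of 10 counts in every library. Adam15 was the most counted protease, with log2 fold change -0.04 (edgeR adjusted p = 0.925).

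Of 39 genes for integrin activation and adaptor proteins, 33 were tested and 0 were called with edgeR or DESeq2, while curated mRNA records with DESeq2, chosen after seeing the data, called Rasgrp2 and Rassf5. An unadjusted p under 0.05 was found for 6, beside 13.2% of all genes tested. The groups were apart for 9, beside 20.8%, of which 5 were higher and 4 lower in diseased-BWF1 mice. Their median log2 fold change was 0.05. Rassf5, whose product RAPL links Rap1 to integrins, had the smallest p, with 230.0, 223 and 214 normalized counts in control mice and 280.4, 367 and 357 in diseased-BWF1 mice (log2 fold change 0.59, edgeR adjusted p = 0.111). The most counted was Tln1, the gene of talin, with 11512, 11232 and 7456 in control mice and 11120, 9738 and 10627 in diseased-BWF1 mice. Control mouse 3 was again low in a long transcript, of 8393 bases, and the log2 fold change of Tln1 was 0.06 with it and -0.12 without it.

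Among 24 genes of integrin ligands, 8 were tested and 0 were called with edgeR, while 6 had an unadjusted p under 0.05, beside 13.2% of all genes tested, and DESeq2 called 5, beside 2.97%. EdgeR did call Lama3 and Thbs1 with age as a covariate and without the low-count filter, and Lama3 without diseased-BWF1 mouse 3 (adjusted p = 0.0324). These 2 genes went opposite ways, with log2 fold changes of -1.37 for Lama3 and 2.86 for Thbs1 in the main fit. DESeq2 called both, with adjusted p of 0.00466 and 0.0174. Fn1, fibronectin, bound by alpha 4 and alpha 5 integrins, was the most counted, with 205863, 253958 and 162879 normalized counts in control mice and 260129, 263153 and 248453 in diseased-BWF1 mice (log2 fold change 0.31, edgeR adjusted p = 0.587, and log2 0.16 without control mouse 3). C3, whose fragment iC3b binds Mac-1, had the smallest p, with 2208, 1362 and 1238 in control mice and 3940, 3525 and 3088 in diseased-BWF1 mice. The C3 values of the groups did not overlap. Its log2 fold change was 1.13 (standard error 0.24), with an adjusted p of 0.0859 from edgeR and 0.000462 from DESeq2. EdgeR called C3 without control mouse 1 (adjusted p = 0.0494) and without the low-count filter.

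Of 18 immunoglobulin-family and junctional adhesion genes, 7 were tested and 0 were called with edgeR, while 1 had an unadjusted p under 0.05, beside 13.2%, and DESeq2 called 1, beside 2.97%. That gene was Jam2, a junctional adhesion molecule, with 48.0, 35.0 and 26.4 normalized counts in control mice and 3.78, 13.2 and 1.01 in diseased-BWF1 mice (log2 fold change -2.60, edgeR adjusted p = 0.142). EdgeR called Jam2 without the low-count filter. Ceacam1 was the most counted, with log2 fold change 0.23. Of 16 further adhesion G protein-coupled receptors, 6 were tested and 0 were called with edgeR or DESeq2, and 3 had an unadjusted p under 0.05, beside 13.2%. Adgrg6 had the smallest p of these, with 241, 248 and 231 normalized counts in control mice and 141, 183 and 163 in diseased-BWF1 mice (log2 fold change -0.57, edgeR adjusted p = 0.118). Adgre5, which encodes CD97, was the most counted, with log2 fold change 0.32 (edgeR adjusted p = 0.482).

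The markers of resident PMs were present in every library. All 12 listed, which include Adgre1, Itgam, Icam2 and Selp, had at least 10 counts in each mouse, led by Prg4, and their summed normalized counts were 153043, 165024 and 161036 in control mice and 162351, 172171 and 172564 in diseased-BWF1 mice. Prg4 alone held 59043 to 93059 of each sum, which therefore says little of the other markers. The groups were apart for 6 of the 12, Prg4 higher and Adgre1, Icam2, Timd4, Lgals3 and Cxcl13 lower in diseased-BWF1 mice, beside 20.8% of all genes tested in either direction and 11.2% lower. None of the 12 was called with edgeR, 3 had an unadjusted p under 0.05 (Cxcl13, Icam2 and Timd4), beside 13.2%, and DESeq2 called Cxcl13. This chemokine gene had 7106, 10526 and 15165 in control mice and 2362, 4467 and 4991 in diseased-BWF1 mice, with log2 fold change -1.48 and an adjusted p of 0.127 from edgeR and 0.00106 from DESeq2. Timd4 had 4799, 4716 and 4558 in control mice and 3631, 3806 and 2315 in diseased-BWF1 mice (log2 fold change -0.53, edgeR adjusted p = 0.334). Gata6, which defines these cells, had 359, 454 and 311 in control mice and 425, 409 and 262 in diseased-BWF1 mice. Of 11 markers of small PMs or dendritic cells, 10 had at least 10 counts in some mouse, led by Retnla, and the sums were 5272, 6297 and 5157 in control mice and 5907, 1179 and 1388 in diseased-BWF1 mice. Retnla carried much of these sums, with 424 and 52.4 in diseased-BWF1 mice 2 and 3 against 1851 to 4836 in the other mice, so they say little of the other markers. Across the 9 tested, log2 fold changes had a median of 0.34. EdgeR called 0 of them, 2 had an unadjusted p under 0.05, Irf4 (log2 1.32) and Folr2 (log2 -1.74), and DESeq2 called Folr2.

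Of 9 blood monocyte markers, 6 had at least 10 counts in some mouse. The sums were 2153, 3116 and 3885 in control mice and 2607, 3711 and 3566 in diseased-BWF1 mice, led by F13a1. The list holds Hp, the haptoglobin gene, which was called higher (log2 1.98, edgeR adjusted p = 0.0192). The Hp call held without control mouse 3 (adjusted p = 0.0182) and was lost without control mice 1 and 2, at 0.0816 and 0.0777, and without diseased-BWF1 mice 1, 2 and 3, at 0.0676, 0.0514 and 0.0504, while its log2 fold change stayed between 1.81 and 2.24. The defining monocyte marker Ly6c2 had 1 count in control mouse 1 and 0 in the other libraries, Chil3 had at most 1 count in any mouse, and Ccr2 had 13, 8 and 2 counts in control mice and 24, 6 and 31 in diseased-BWF1 mice. Of 9 platelet and megakaryocyte markers, 2 had at least 10 counts, Pf4 and Itgb3, and the sums were 1325, 2298 and 3239 in control mice and 1206, 978 and 1135 in diseased-BWF1 mice. Most of each sum was Pf4, which macrophages also make, with 1191, 2161 and 3013 in control mice and 1037, 784 and 1031 in diseased-BWF1 mice. The groups did not overlap for Pf4, whose log2 fold change was -1.16, with an adjusted p of 0.176 from edgeR and 0.0123 from DESeq2, which called it.

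Markers of other cell types were at or near 0. The 7 B cell markers found in the table, led by Cd79a, summed to 26.5, 12.3 and 20.7 normalized counts in control mice and 13.2, 10.1 and 3.03 in diseased-BWF1 mice, and 1 of them reached 10 counts in any mouse. The 7 T and NK cell markers, led by Cd3d, summed to 7.45, 11.3 and 1.15 in control mice and 12.3, 5.06 and 7.06 in diseased-BWF1 mice. Neutrophil markers, 7 genes led by S100a8, summed to 8.27, 8.23 and 14.9 in control mice and 12.3, 11.1 and 18.2 in diseased-BWF1 mice, with Ly6g, Mpo and Retnlg at 0. The 6 eosinophil markers, led by Il5ra and with Epx, Prg2 and Ear6 at 0, summed to 14.9, 10.3 and 8.04 in control mice and 16.1, 11.1 and 6.05 in diseased-BWF1 mice. Mast cell markers, 6 genes led by Cpa3 and with Mcpt4, Tpsb2, Kit and Fcer1a at 0, summed to at most 2.30 in any mouse. The 7 mesothelial, fibroblast and endothelial markers, led by Col1a1 and with Msln and Cdh5 at 0, summed to at most 5.14 in any mouse.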

How the data were processed

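RNA of sorted PMs was sequenced as stranded paired-end libraries, and the authors deposited whole-number counts for 107193 RefSeq transcript records per mouse, without normalization. The submitters' processing notes name Salmon 0.8.0, DESeq2 and the build GRCm38.p6. Whether the counts are rounded Salmon estimates, and whether counting used strand, is not given in the sources used here.

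Records were joined to a RefSeq gene table of GRCm38.p6, 45754 on accession and version and 40712 on accession alone, and counts were summed over 32879 genes. The 20727 unmatched records were left out. The groups were compared with edgeR 4.0.16 in R 4.3.3 (filterByExpr, TMM, glmQLFit, glmQLFTest, Benjamini-Hochberg adjustment over 10505 genes). Calls required an adjusted p below 0.05 together with a 1.5-fold difference or more. Normalized counts used size factors of DESeq2 1.42.0, from which the order of groups was read with an exact two-sided permutation test. The 95% intervals use the standard error and the degrees of freedom of the edgeR fit. Fits used all 6 mice and no covariate. No library repeated another of its group, because there the chi-square per gene between mice was 8.79 or more, where sampling alone gives about 1.

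TPM-like levels divide gene counts by the GENCODE vM21 length of the most counted record with a length, for 23891 genes that hold 95.7% to 98.2% of counts. The code was tested on simulated data. Members, lists and the rule for named genes were chosen with earlier results of these data known. The rule named all members, every called gene of another list or else that with the smallest p, the most counted gene of each list, and Itgal, Itgav, Itga5, Itgb5, Itgb7 and Selplg, though not every gene so selected is described here. Alternatives were DESeq2, limma-voom (limma 3.58.1), other normalizations, other filters, curated mRNA records alone, age as a covariate, the replicate number as a block, no fold threshold and each mouse left out.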

Additional observations from a re-analysis of the deposited data

How the results depend on the processing

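The members called stayed at 0 under every alternative run, which were 17 other fits. Of 144 recomputed member log2 fold changes, 141 kept their sign. Those that turned were Itga6 without diseased-BWF1 mouse 3 (0.012) and Itgb1 without control mouse 3 (-0.036) and without diseased-BWF1 mouse 2 (-0.052), and each lay within its standard error of 0. With each mouse left out, the log2 fold change of Itga6 ran from -0.245 to 0.012 and that of Itgb1 from -0.052 to 0.057. The members whose groups did not overlap numbered 2 with TMM scaling and with curated mRNA records, 0 on the TPM-like scale, and 2 to 6 with each mouse left out, settings chosen after seeing the data.

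The counts of all called genes, 42 higher and 86 lower, moved more. DESeq2 called 127 higher and 242 lower, no low-count filter 89 and 170, at least 10 counts in every library 27 and 57, and curated mRNA records alone 9 and 7, or 96 and 163 with DESeq2, a setting chosen after seeing the data. Age as a covariate gave 34 and 53. With each mouse left out the counts were 11 to 22 higher and 10 to 29 lower. The share of higher calls was 32.8% with TMM, 33.6% with RLE and 34.7% with upper-quartile factors. Of the other adhesion genes, 4 as reported, DESeq2 called 15, no filter 11, age as a covariate 6, curated records 1, curated records with DESeq2 13, and the fits without a mouse 0 to 5. The causes were not tested.

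With the replicate block, 18 genes were higher and 20 lower, and 1 other adhesion gene was called, with 0 members. The numbers are those of the labels and the mice are different animals. Deviations of same-numbered mice correlated at 0.107, 0.001 and 0.152, and those of other pairs at -0.14 to 0.055. Each control mouse except mouse 2 correlated best with its own number. The labels do not say whether mice of the same number were handled together, and this was not tested. Depth limits Itgax, where 3 counts are 0.652 to 0.888 CPM.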
